A study of Mus musculus with 9 samples.

Results

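The imprinted Dlk1-Dio3 region of mouse chromosome 12 encodes a large cluster of microRNAs (miRNAs), and 10 mature miRNAs of this cluster were followed here in exosomes released by RAW264.7 macrophages. They are mmu-miR-411-5p, mmu-miR-127-3p, mmu-miR-369-3p, mmu-miR-379-5p, mmu-miR-410-3p, mmu-miR-409-3p, mmu-miR-487b-3p, mmu-miR-431-5p, mmu-miR-382-5p and mmu-miR-376c-3p (written below without the mouse prefix), and they were taken by name from 1101 mature miRNAs listed in any library. All 10 passed the filter on low counts, which kept 453 mature miRNAs in all. RAW264.7 is an established mouse macrophage-like cell line. It was cultured in DMEM with fetal bovine serum and was either left untreated or given silica for 24 h or for 48 h, with 3 small RNA libraries in each of these 3 groups. Exosomes, small vesicles that cells release, were collected by ultracentrifugation. The sources used here give neither the silica dose nor the culture time of the untreated cells. The series asks how the miRNA content of macrophage exosomes changes under silica exposure.

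In the Dlk1-Dio3 region, the paternal chromosome expresses the protein-coding genes Dlk1, Rtl1 and Dio3, and the maternal chromosome expresses long noncoding RNAs (Meg3, Rian and Mirg) together with the miRNAs and small nucleolar RNAs processed from them. A miRNA hairpin can give a mature strand from each of its sides, named the 5p and the 3p arm. The mature strand pairs with target mRNAs mainly through its seed, bases 2 to 8. The miRNAs of this cluster are known for their high levels in embryo, placenta and brain, and in blood formation they are known from mouse haematopoietic stem cells.

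The mature sequences show that these miRNAs have different seeds although they come from one cluster, so that each was read as a miRNA of its own. RefSeq (GRCm38.p6) sequences were matched for 8 of the 10, and all 8 lie on the + strand of chromosome 12. They are printed 5′ to 3′ in the order of their hairpins on the chromosome, with the seed in capitals.
miR-431-5p: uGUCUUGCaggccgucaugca
miR-127-3p: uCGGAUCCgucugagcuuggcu
miR-379-5p: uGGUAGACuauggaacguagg
miR-411-5p: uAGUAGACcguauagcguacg
miR-382-5p: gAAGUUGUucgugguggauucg
miR-409-3p: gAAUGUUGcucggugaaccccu
miR-369-3p: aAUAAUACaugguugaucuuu
miR-410-3p: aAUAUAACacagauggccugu
The seeds of miR-379-5p and miR-411-5p share their last 6 bases and differ in the first. No other tested miRNA with a sequence in the reference had the same seed as any of the 8. The nearest other mature mouse miRNA in the reference differed from each of them by 4 to 7 bases. The smallest distance, 4 bases, was between miR-369-3p and miR-154-3p, which had 1 count in all libraries together. The mature sequences differed in base composition: 23.8% of the bases of miR-369-3p were G or C, against 38.1% in miR-410-3p and 47.6% to 59.1% in the other 6.

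The 10 hairpins span 153.3 kb, from position 109590447 to position 109743795 of chromosome 12. The hairpins of miR-431 and miR-127 lie opposite an exon of Rtl1, a retrotransposon-derived gene needed in the placenta, and their miRNAs are known to be fully complementary to Rtl1 mRNA. After a gap of 116.1 kb, the hairpins of miR-379, miR-411, miR-376c and miR-487b lie between annotated genes. Those of miR-382, miR-369 and miR-410 lie in exonic sequence of the noncoding RNA Mirg, and that of miR-409 lies in a Mirg intron (GENCODE M21). This second block covers 34.7 kb and is known as the miR-379/miR-410 cluster, which in neurons is under the control of the transcription factor Mef2.

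**Figure D1:**
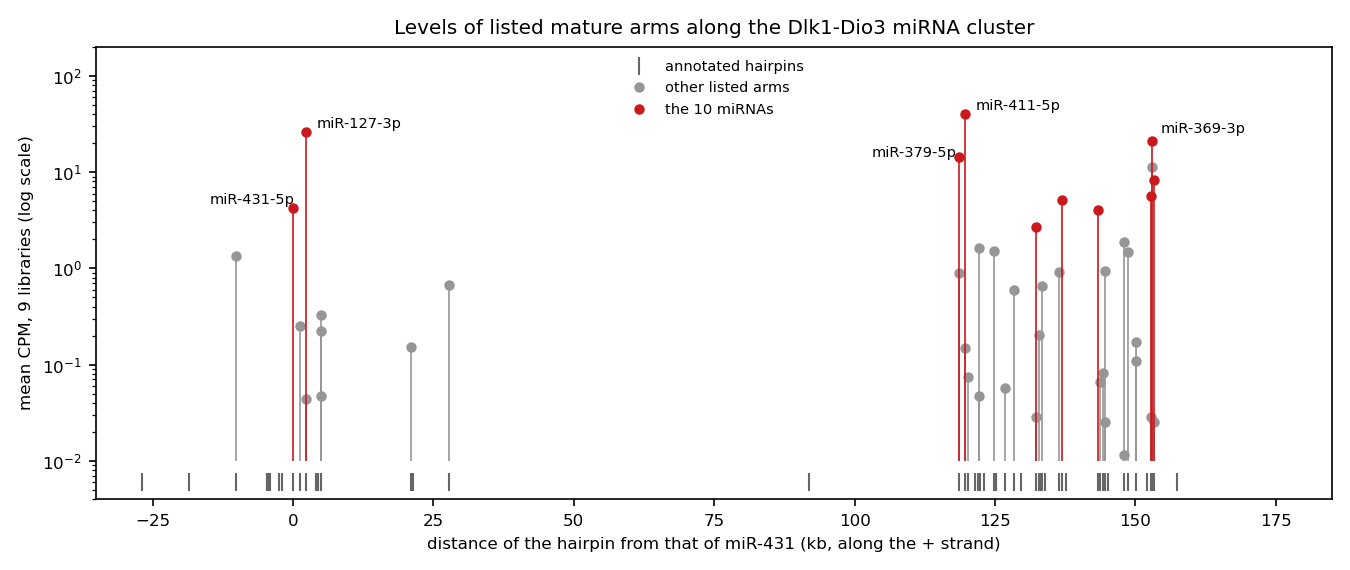
Mean level of 42 of the 45 listed mature miRNAs of the cluster over the 9 libraries (y axis, CPM of mature miRNA, log scale) against the distance of its hairpin from that of miR-431 (x axis, kb), with ticks for the annotated hairpins (both arms of miR-1247 and miR-544-3p are not drawn). The 10 miRNAs followed here lie in a small block at 0.0 to 2.4 kb and in a larger one at 118.6 to 153.3 kb, and 4 of the 35 other listed arms passed the filter on low counts.

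Mature miRNA made up 28.01% to 44.66% of the reads counted to any small RNA in a library, or 2158418 to 8331451 counts. Levels are given as counts per 1000000 counts of mature miRNA (CPM), scaled by TMM, so they are shares of the miRNA in a vesicle preparation: more copies of a miRNA and fewer copies of the other miRNAs cannot be told apart. Exosome libraries cannot show whether the cells changed. The untreated library numbered 2 and the 48 h library numbered 2 were the most alike of all 36 library pairs (r = 0.971 across the 453 miRNAs), although their groups differ, and these 2 libraries held 829 and 912 of the listed mature miRNAs against 486 to 713 in the other 7. They are called the resembling pair below, and the main values of each member at 24 h are also given without them. The 8 miRNAs written down as markers of macrophages and blood cells summed to between 71484 and 108522 CPM in each library. Most of this sum was miR-146a-5p (19534.0 to 71167.2 CPM) and miR-21a-5p (24376.9 to 67880.4 CPM). miR-155-5p was at 577.5 to 1033.7 CPM, miR-223-3p at 44.7 to 183.8 CPM and miR-142a-3p at 14.5 to 241.1 CPM. All 8 were listed, but miR-511-3p was at 0.0 CPM in several libraries, and 7 of the 8 passed the filter. The libraries of a group are called independent repetitions in the design text, and every pair of libraries within a group differed beyond counting noise (chi-square per degree of freedom 261 to 3147).

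The cluster was a small part of the exosomal miRNA. Its 10 miRNAs had 5425 of 43566341 mature counts, or 0.0125%. miR-411-5p was the most abundant with a mean of 40.1 CPM over the 9 libraries, rank 200 of the 453 tested, and miR-127-3p followed at 25.9 CPM. miR-369-3p (21.1 CPM), miR-379-5p (14.5 CPM) and miR-410-3p (8.32 CPM) came next. miR-409-3p, miR-487b-3p, miR-431-5p, miR-382-5p and miR-376c-3p had means between 2.67 and 5.66 CPM and ranks between 343 and 405. All of these neighbours in the order overlapped in their values across libraries. Depending on the library, 3 counts equal 0.314 to 1.55 CPM, so the less abundant members rest on few reads in some libraries.

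Summed over the 10 miRNAs, the untreated libraries 1, 2 and 3 stood at 101.3, 52.8 and 119.0 CPM. The 24 h libraries stood at 209.0, 171.3 and 232.2 CPM, and the 48 h libraries at 111.8, 106.5 and 81.3 CPM. Every 24 h library was above every other library, and the 48 h libraries lay within the range of the untreated ones. The group means were 91.0 ± 34.3 CPM untreated, 204.2 ± 30.7 CPM at 24 h and 99.9 ± 16.3 CPM at 48 h (SD, n = 3 each). Without the resembling pair, the log2 ratio of the 24 h mean to the untreated mean was 0.89, against 1.17 with it. The log2 ratio of 48 h to untreated was -0.19 without the pair and 0.13 with it, and that of 48 h to 24 h was -1.08 and -1.03. The sum was not tested, because the members were chosen with results of these data known.

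**Figure D2:**
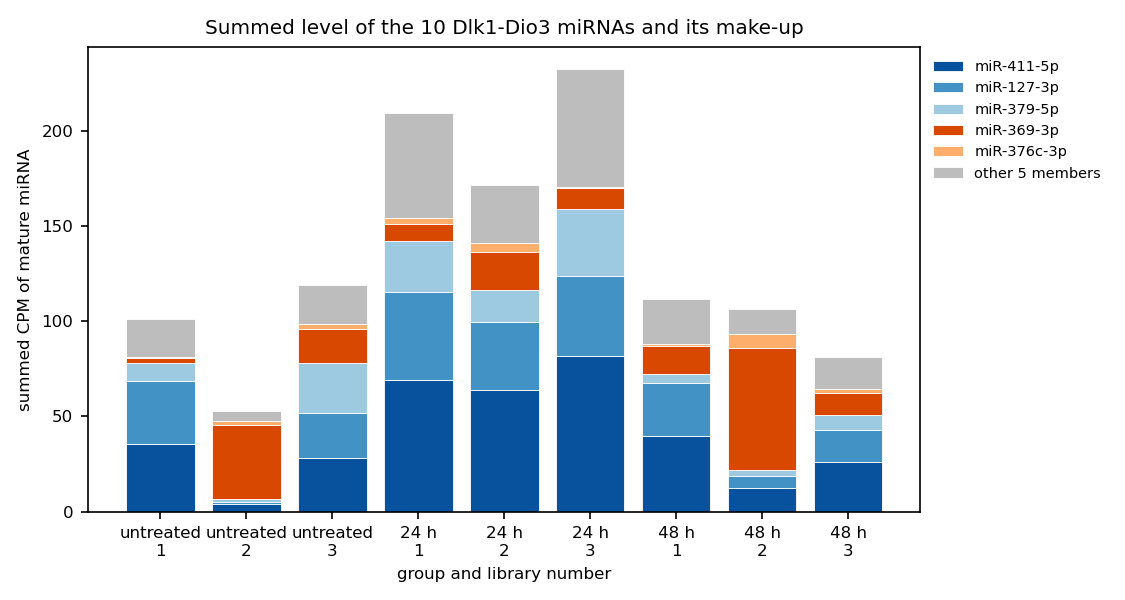
Summed level of the 10 miRNAs in each library (y axis, CPM of mature miRNA; x axis, group and library number), with the bars divided by miRNA. The 24 h bars reach 171.3 to 232.2 CPM, while miR-369-3p fills most of the bars of untreated library 2 and 48 h library 2.

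miR-411-5p and miR-379-5p, the pair with the nearly shared seed, come from neighbouring hairpins at the start of the second block. miR-411-5p was at 35.4, 3.93 and 28.2 CPM in the untreated libraries, at 69.0, 64.1 and 81.9 CPM at 24 h and at 39.9, 12.4 and 26.0 CPM at 48 h. The 24 h group lay above both other groups with no overlap, and library 2 was the low one in the untreated and the 48 h group. Its level was 3.19-fold higher in 24 h exosomes than in untreated ones (log2 fold change 1.67 ± 0.76 SE). This did not pass the quasi-likelihood test of edgeR after Benjamini-Hochberg adjustment (adjusted p = 0.482). The 48 h group differed from the untreated group by a log2 fold change of 0.21 ± 0.74 (SE) and from the 24 h group by -1.46 ± 0.76 (SE; edgeR adjusted p = 0.472). Leaving out the resembling pair gave log2 fold changes of 1.19 at 24 h and 0.05 at 48 h against untreated, and -1.14 at 48 h against 24 h.

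miR-379-5p was at 9.12, 1.54 and 26.1 CPM in the untreated libraries, at 26.3, 17.2 and 34.7 CPM at 24 h and at 4.91, 3.04 and 7.60 CPM at 48 h. The 48 h libraries were all below the 24 h libraries, and the untreated libraries were spread across both. Between 48 h and 24 h the log2 fold change was -2.33 ± 0.91 (SE; edgeR adjusted p = 0.424). Against the untreated group, the log2 fold change was 1.09 ± 0.87 (SE) at 24 h and -1.24 ± 0.88 (SE) at 48 h. Both values depended on single untreated libraries. Without untreated library 3 they were 2.21 and -0.12, so the lower level at 48 h rested on that library. Without untreated library 2 they were 0.59 and -1.76. They were 0.58 and -1.49 without the resembling pair, and that of 48 h against 24 h was -2.07.

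miR-127-3p and miR-431-5p are the members encoded opposite Rtl1. miR-127-3p was at 33.3, 1.20 and 23.8 CPM in the untreated libraries, at 46.5, 35.3 and 42.0 CPM at 24 h and at 27.7, 6.39 and 17.0 CPM at 48 h. The 24 h group again lay above the other two without overlap, with library 2 lowest in each group. The log2 fold change at 24 h against untreated was 1.08 ± 0.91 (SE; edgeR adjusted p = 0.696). At 48 h against 24 h it was -1.28 ± 0.92 (SE; edgeR adjusted p = 0.592). The 24 h value against untreated was 1.72 without untreated library 1 and 1.77 with the replicate block. The 2 log2 fold changes were 0.54 and -0.90 without the resembling pair.

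miR-431-5p was at 8.01, 0.683 and 3.86 CPM in the untreated libraries, at 9.82, 1.99 and 10.9 CPM at 24 h and at 1.73, 0.210 and 1.15 CPM at 48 h. The 48 h libraries lay below all 24 h libraries, but the 24 h library 2 was close to them and the 48 h values rest on 13 counts in all. The log2 fold change of 48 h against 24 h was -2.90 ± 1.24 (SE; edgeR adjusted p = 0.458), and -2.38 without the resembling pair. At 24 h against untreated it was 0.84 ± 1.13 (SE), with 1.69 when untreated library 1 was left out and 0.35 without the resembling pair. For 48 h against untreated it was -2.06 ± 1.21 (SE), with -1.24 when untreated library 1 was left out.

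The members from Mirg differed among themselves. miR-382-5p had 0, 4 and 1 counts in the untreated libraries, 38, 22 and 25 counts at 24 h and 12, 8 and 21 counts at 48 h, or 0.00, 0.683 and 0.227 CPM, then 9.82, 3.65 and 13.0 CPM, then 3.47, 0.838 and 4.84 CPM. Both silica groups lay above the untreated group without overlap. The group totals were 5 counts untreated (exact 95% Poisson interval 1.62 to 11.7, counting error only), 85 counts at 24 h (67.9 to 105.1) and 41 counts at 48 h (29.4 to 55.6). The log2 fold change was 4.71 ± 1.32 (SE) at 24 h and 3.18 ± 1.26 (SE) at 48 h against untreated. Both were larger without the resembling pair, at 6.03 and 4.94. At 48 h, leaving out one library gave 2.51 without untreated library 1 or 48 h library 3 and 4.54 without untreated library 2. At 24 h, it gave 4.06 without untreated library 1 and 6.07 without untreated library 2.

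The call for miR-382-5p depended on the test. The main test, edgeR, gave adjusted p = 0.386 at 24 h and 0.997 at 48 h, and the Wald test of DESeq2 gave adjusted p = 0.00751 at 24 h. Over the 16 other settings, its adjusted p at 24 h ran from 0.00751 to 0.900, and its log2 fold change from 4.06 to 6.07. It passed in 1 of them, the DESeq2 test. It passed the filter on low counts only through its 24 h counts, so the filter and this call rest on the same high values.

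miR-409-3p was at 5.59, 0.683 and 3.41 CPM in the untreated libraries, at 8.52, 7.13 and 12.4 CPM at 24 h and at 8.09, 1.68 and 3.46 CPM at 48 h. Its 24 h group lay above the untreated group without overlap (log2 fold change 1.53 ± 0.96 SE, edgeR adjusted p = 0.599) but overlapped the 48 h group. This log2 fold change was 2.15 without untreated library 1 and 1.06 without the resembling pair. miR-410-3p, whose hairpin is the last of the 10 and which is known from insulin secretion in mouse beta cells, was at 4.65, 2.90 and 9.54 CPM untreated, at 11.4, 7.46 and 18.7 CPM at 24 h and at 9.25, 7.12 and 3.92 CPM at 48 h. All its groups overlapped, and its log2 fold change at 24 h against untreated was 1.12 ± 0.77 (SE; edgeR adjusted p = 0.626), and 0.82 without the resembling pair.

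miR-487b-3p was at 1.68, 0.171 and 3.41 CPM in the untreated libraries, at 15.5, 10.1 and 6.74 CPM at 24 h and at 1.44, 3.46 and 3.69 CPM at 48 h. Its 24 h libraries were above all the others. The log2 fold change at 24 h against untreated was 2.63 ± 1.05 (SE; edgeR adjusted p = 0.437), and at 48 h against 24 h it was -1.90 ± 1.01 (SE; edgeR adjusted p = 0.489). The 24 h value against untreated was 3.47 without untreated library 3. Without the resembling pair, the 2 values were 2.10 and -2.08. Against untreated, the 48 h log2 fold change was 0.73 ± 1.01 (SE), with 1.60 when untreated library 3 was left out and 0.02 without the resembling pair.

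miR-369-3p and miR-376c-3p followed another order. miR-369-3p, reported in human cells to act on the AU-rich element of TNF mRNA, was at 2.79, 38.8 and 17.7 CPM in the untreated libraries, at 9.30, 19.7 and 11.4 CPM at 24 h and at 14.4, 64.0 and 11.5 CPM at 48 h. Library 2 was the highest in each group, where most other members were low. The log2 fold change was -0.55 ± 0.92 (SE) at 24 h against untreated and 0.42 without the resembling pair. Without untreated library 2 alone it was 0.43, so its direction depended on that library, and without untreated library 1 it was -1.15.

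miR-376c-3p belongs to the miR-376 family, known for adenosine-to-inosine editing in its seed in brain. It was at 0.745, 2.22 and 2.72 CPM in the untreated libraries, at 2.84, 4.64 and 0.518 CPM at 24 h and at 0.867, 7.44 and 2.07 CPM at 48 h. The groups overlapped in every comparison, and library 2 was the highest at 24 h and at 48 h. Its log2 fold change at 24 h against untreated was 0.53 ± 1.19 (SE; edgeR adjusted p = 0.902), with 0.68 without the resembling pair and -0.13 without 24 h library 2.

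**Figure D3:**
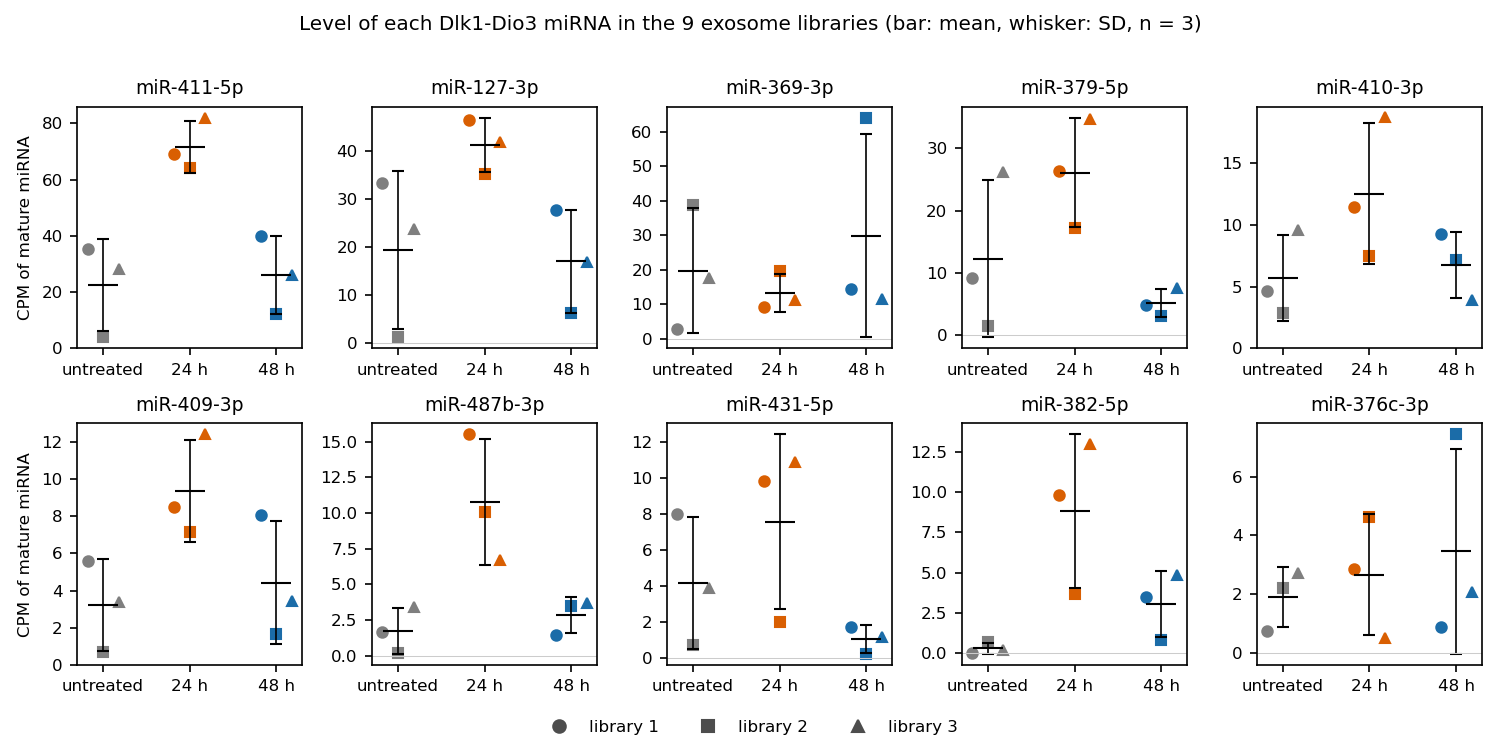
Level of each of the 10 miRNAs (y axis, CPM of mature miRNA, own scale per panel) in the 3 groups (x axis), with 1 symbol per library, a bar for the mean and a whisker for the SD (n = 3). The 24 h libraries are the highest for miR-411-5p, miR-127-3p and miR-487b-3p without overlap, while miR-369-3p is highest in the library numbered 2 of each group.

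Counted over the 10 miRNAs, 9 were higher in 24 h exosomes than in untreated ones, with a median log2 fold change of 1.11. Of all 453 tested miRNAs, 46.6% were higher, with a median of -0.07. The members' median was 1.71 without untreated library 1, 0.77 without untreated library 2, 0.75 without the resembling pair and 1.69 with the replicate block. edgeR called 0 of the 10 at an adjusted p of 0.05, where the share over all miRNAs was 0%. At an unadjusted p under 0.05 edgeR had 3 of the 10 (miR-411-5p, miR-487b-3p and miR-382-5p), against 10.2% of all miRNAs. DESeq2 called 1 of the 10 at an adjusted p of 0.05, against 0.883% of all miRNAs. Groups did not overlap, with 24 h higher, for 5 of the 10 (miR-411-5p, miR-127-3p, miR-409-3p, miR-487b-3p and miR-382-5p), against 10.4% of all. For 0 of the 10 was every 24 h library lower, against 6.18% of all. miR-382-5p is in the counts of 3, 1 and 5 given here, and it passed the filter only through its 24 h counts. In a fit paired by library number (replicate block), 3 of all miRNAs passed for 24 h against untreated, and 0 of these were members.

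At 48 h against untreated, 7 of the 10 were higher, with a median log2 fold change of 0.34, beside 52.5% and 0.03 over all miRNAs. edgeR called 0 of the 10 (0% of all), and DESeq2 called 0 of them (0.221% of all). Only miR-382-5p had an unadjusted p under 0.05 in edgeR (0.0273), against 0.883% of all miRNAs. It was also the 1 member with every 48 h library above every untreated library, against 2.21% of all, and 0 members had every one below, against 1.55% of all. With only the untreated and 48 h groups, miR-382-5p did not pass the filter. It was kept in this comparison through its 24 h counts. Without untreated library 2, the number of members higher at 48 h was 4. Without the resembling pair it was 5, and the median log2 fold change was -0.04.

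Between 48 h and 24 h, 8 of the 10 were lower, with a median log2 fold change of -1.37, beside 54.1% higher and a median of 0.14 over all miRNAs. edgeR called 0 of the 10 (0% of all) and DESeq2 called 0 (1.32% of all). At an unadjusted p under 0.05 edgeR had 2 of the 10, miR-379-5p and miR-431-5p, against 9.71% of all. For 5 of the 10 (miR-411-5p, miR-127-3p, miR-379-5p, miR-487b-3p and miR-431-5p) every 48 h library was below every 24 h library, against 10.4% of all, and for 0 every one was above, against 10.4% of all. With only the 24 h and 48 h groups, miR-431-5p did not pass the filter, and its 48 h values rest on 13 counts in all. The 3 comparisons share their groups, so the higher values at 24 h enter both the first and the third. Without 48 h library 2, 0 of the 10 were higher at 48 h than at 24 h, and the median was -1.0. Scaling by the total of all counted reads moved the median of all miRNAs to -0.21, 0.14 and 0.36 in the 3 comparisons, and the members' medians to 0.90, 0.31 and -1.26.

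**Figure D4:**
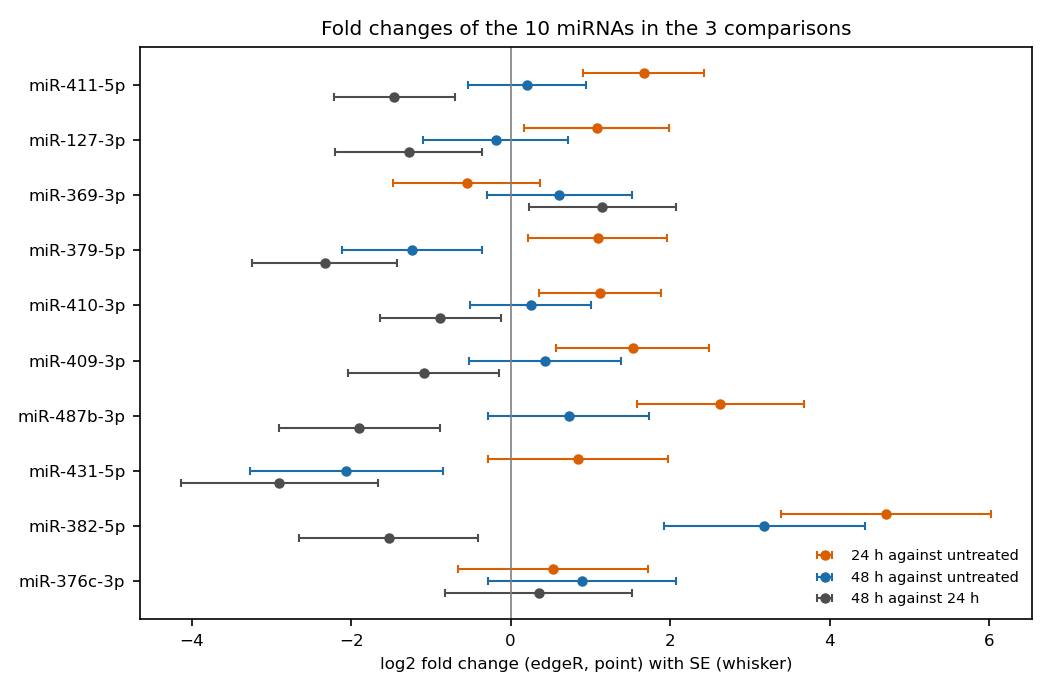
Log2 fold change of each of the 10 miRNAs (x axis, point) from edgeR in the 3 comparisons (colours), 1 row per miRNA. Whiskers show the SE derived from each unadjusted edgeR p-value. Of the 10, 9 lie above 0 for 24 h against untreated and 8 lie below 0 for 48 h against 24 h, with SEs of about the size of most changes.

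The make-up of the cluster also differed between libraries. miR-411-5p was the most abundant member in 7 of the 9 libraries, with 23.7% to 37.4% of the 10 miRNAs' counts. In untreated library 2 and 48 h library 2 it had 7.44% and 11.6%, and miR-369-3p led with 73.5% (exact 95% binomial interval 68.2% to 78.3%) and 60.1% (57.0% to 63.1%). In the other 7 libraries miR-369-3p had 2.76% to 14.9%. These intervals cover counting error only. Untreated library 2 was the lowest of its group for 7 members and 48 h library 2 for 6, while 24 h library 2 was also the lowest of its group for 7. Without miR-369-3p and miR-376c-3p, the other 8 summed to 97.7, 11.8 and 98.5 CPM untreated, to 196.8, 147.0 and 220.3 CPM at 24 h and to 96.5, 35.1 and 67.7 CPM at 48 h. The 24 h libraries remained above the other 6.

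The arms of the miR-369 hairpin differed in the same libraries. miR-369-5p, the other arm, is not 1 of the 10 but was tested, and it was at 5.21, 0.683 and 12.5 CPM untreated, at 31.8, 17.7 and 13.5 CPM at 24 h and at 11.6, 1.36 and 6.22 CPM at 48 h. The 24 h libraries were all above the untreated and the 48 h ones, as for miR-411-5p and unlike for miR-369-3p from the same hairpin. Its log2 fold change at 24 h against untreated was 1.78 ± 1.02 (SE; edgeR adjusted p = 0.543). The 5p arm had 1.73% of the hairpin's counts in untreated library 2 (exact 95% binomial interval 0.474% to 4.37%) and 2.08% in 48 h library 2 (1.11% to 3.54%), against 35.1% to 77.4% in the other 7. Of 104 hairpins with both arms tested, 2 including miR-369 had a shift towards the 3p arm this large in untreated library 2 relative to the other untreated libraries, and 2 in 48 h library 2. The look at this balance was chosen after the values were seen.

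**Figure D5:**
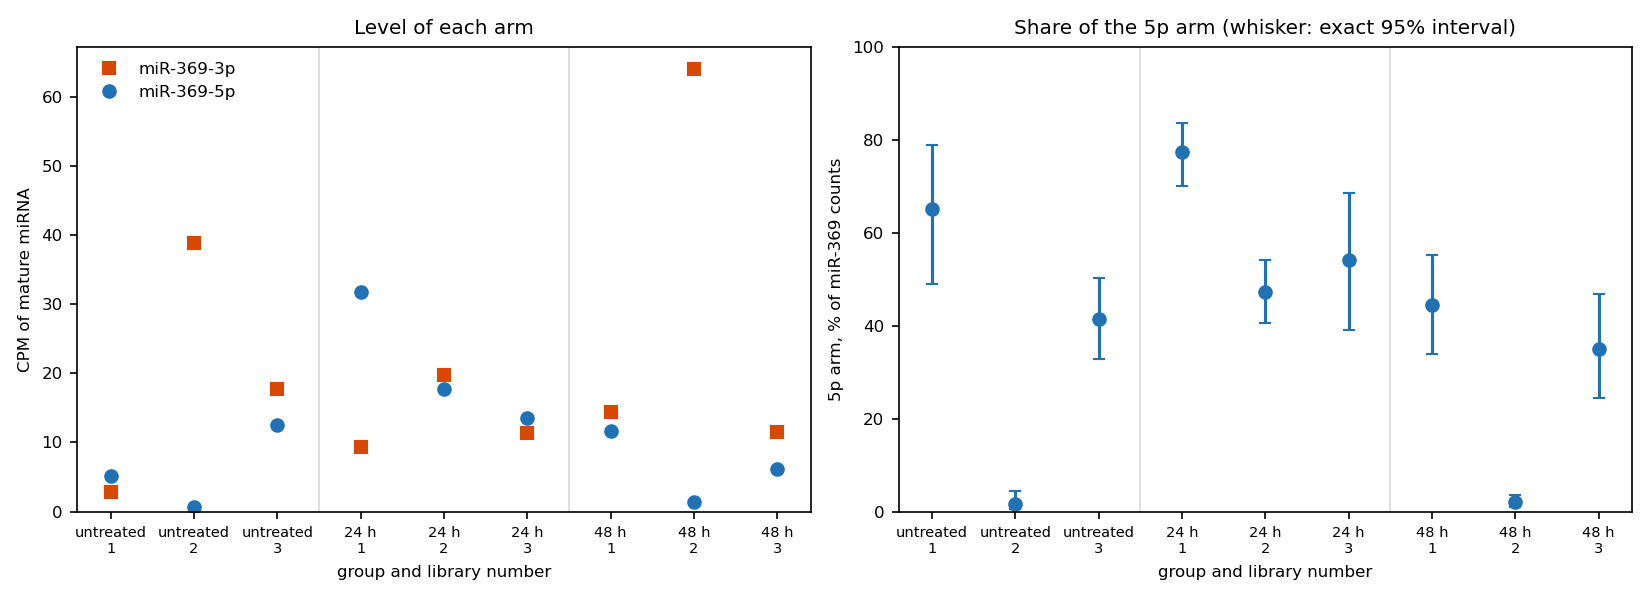
Left, level of both arms of the miR-369 hairpin (y axis, CPM) by library (x axis). Right, share of the 5p arm in the hairpin's counts (y axis, %) with its exact 95% binomial interval. The 5p share is 1.73% and 2.08% in untreated library 2 and 48 h library 2, and between 35.1% and 77.4% in the other libraries.

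Across the 9 libraries, miR-411-5p, miR-127-3p and miR-409-3p moved most closely together, with r = 0.974 between miR-411-5p and miR-127-3p and r = 0.967 between miR-411-5p and miR-409-3p on the log scale. Their hairpins lie in both blocks. miR-369-3p ran opposite to miR-431-5p (r = -0.773) and to miR-127-3p (r = -0.701), and alongside miR-376c-3p (r = 0.698). Without the resembling pair, over 7 libraries, the first 2 values were 0.892 and 0.906, and those of miR-369-3p were -0.520, -0.201 and 0.534. These are descriptions over libraries that share 3 groups, with no test.

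The rest of the cluster was barely counted. Of 59 hairpin names written down for the locus, 33 had a mature arm listed in at least 1 library, with 45 arms in all. The 35 arms outside the 10 had 1046 counts together, of which miR-369-5p had 423, and the 10 had 83.8% of the cluster's counts. For the other 9 hairpins of the members, the opposite arm had 0 to 33 counts over all libraries. Besides miR-369-5p, miR-154-5p, miR-493-5p and miR-496a-3p passed the filter. All 4 were higher at 24 h than untreated (median log2 fold change 0.77), beside 46.6% of all miRNAs. All 4 were lower at 48 h than at 24 h (median -1.74), where 54.1% of all were higher. At 48 h against untreated 1 of the 4 was higher (median -0.52), beside 52.5% of all. In each comparison 0 of the 4 were called, against 0% of all by edgeR and 0.221% to 1.32% by DESeq2. At an unadjusted p under 0.05 edgeR had 0 of the 4 in each comparison, against 0.883% to 10.2% of all. DESeq2 had 0 of the 4 at 24 h against untreated, where it had 59 of all 453. It had 1 at 48 h against untreated (10 of all) and 1 at 48 h against 24 h (71 of all). At 24 h, miR-493-5p was at 0 in library 3 and miR-496a-3p in library 2, and miR-154-5p was at 0.258, 0.828 and 8.29 CPM. The other 26 hairpin names, among them miR-434 and miR-541, had no row in the tables analysed here. The small nucleolar RNAs SNORD113 and SNORD114 of the same locus had 1 count in 1 library.

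Outside the locus, the miRNAs whose levels ran most like the summed level of the 10 across the 9 libraries were miR-451a (r = 0.948), miR-7070-5p (r = 0.885), miR-143-3p (r = 0.879), miR-149-5p (r = 0.867) and miR-191-3p (r = 0.844), of 439 compared. Without the resembling pair, these r were 0.917, 0.790, 0.802, 0.904 and 0.835 over 7 libraries. miR-451a is abundant in red blood cells. It was at 629.7, 147.8 and 555.6 CPM untreated, at 1604.8, 871.9 and 3379.5 CPM at 24 h and at 761.6, 786.3 and 408.9 CPM at 48 h. All 24 h values were above all others. miR-122-5p, the abundant liver miRNA found in serum, was sixth in this order (r = 0.842) and stood at 925.7, 254.7 and 1295.3 CPM, at 1950.7, 1252.4 and 2256.5 CPM and at 955.8, 407.1 and 1086.9 CPM in the same groups. Its 24 h and untreated groups overlapped.

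The whole list of 8 serum, liver and erythroid miRNAs summed to 737.0 to 2191.4 CPM untreated, to 2400.6 to 6157.3 CPM at 24 h and to 1495.0 to 1968.2 CPM at 48 h, with miR-144-5p at 0 in both silica groups. Of its 6 tested members, 5 were higher at 24 h than untreated (median log2 fold change 0.65) and 0 were higher at 48 h than at 24 h (median -1.02). The adjusted p of edgeR for 24 h against untreated was 0.386 for miR-451a and 0.543 for miR-122-5p. The summed level of the 10 cluster miRNAs was highest in the same 3 libraries as the summed level of this list. Most of the list's sum was miR-451a and miR-122-5p, named above because they ran like the members' sum, so this is no separate observation. The other tested miRNAs of the list had log2 fold changes at 24 h of 0.94 (miR-486b-5p), 0.36 (miR-192-5p), 0.23 (miR-194-5p) and -0.13 (miR-486a-5p). The medium contained fetal bovine serum, and the part of serum RNA in the result was not tested.

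The other cell type lists gave the following values. The 8 mesenchymal and endothelial miRNAs summed to 441.8 to 2256.8 CPM untreated, 656.8 to 1628.3 CPM at 24 h and 552.1 to 1059.8 CPM at 48 h, with miR-145a-5p at 0 in the untreated group. Of 7 tested, 5 were higher at 24 h than untreated (median 1.09). The 7 neuronal miRNAs summed to 530.1 to 894.1 CPM, 477.7 to 832.8 CPM and 581.4 to 773.7 CPM in the 3 groups with none at 0, and 3 of 7 were higher at 24 h (median -0.08). Of the macrophage and blood cell list, 2 of 7 tested were higher at 24 h (median -0.24). The 5 muscle miRNAs summed to 19.2 to 37.5 CPM over all libraries, with miR-208a-3p at 0 in all 3 groups.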

How the data were processed

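Per the labels' protocols, total RNA of exosomes from RAW264.7 cells was taken with Trizol, and the 9 libraries were sequenced by the BGISEQ-500 small RNA protocol. Per the submitters' processing notes, reads were handled with Trim Galore, Bowtie and HTSeq on mm10, with no versions. The sources used here do not say how reads matching several miRNAs were assigned. The authors deposited a table per library with the count of reads per small RNA, and an RPM column (called TPM in the file headers) that equals the count divided by the table's total, times 1000000, within 0.005; it was not tested. A miRNA absent from a table was taken as 0 counts.

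The members and lists, the rule for named miRNAs and the comparisons were chosen with earlier results of these data known. All 10 members, the tested or opposite arms of the locus and the 5 miRNAs most like the members' sum are named; miR-122-5p was added after its values were seen. Mature counts of groups taken from the labels were filtered with filterByExpr (minimum count 10), normalised by TMM with factors from 0.829 to 1.16. The quasi-likelihood test of edgeR 4.0.16 (R 4.3.3, limma 3.58.1) was run in 1 unblocked fit over 9 libraries (residual degrees of freedom, 6). P-values were adjusted by Benjamini-Hochberg over 453 miRNAs, with a threshold of 0.05. The SE of each log2 fold change was calculated back from its unadjusted p-value, so it restates that p-value and is no separate estimate. The spread between libraries of a group was 0.756 of the mean (square root of the common dispersion). The scripts were run on simulated counts, with less spread than these libraries and larger changes than in most members. That run therefore does not show how well the test finds changes of the size seen here. The p-values of the main fit set the difference between groups against the spread between these libraries, and ignore the library numbers. Alternatives were DESeq2 1.42.0, other scalings, no filter, the compared groups alone, a replicate block, and each library left out.

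Same-numbered libraries deviated together from their group means across miRNAs, with r for numbers 1, 2 and 3 of 0.136, 0.439 and 0.149 between 24 h and untreated and of 0.152, 0.636 and 0.315 between 48 h and untreated. Between 48 h and 24 h, r was -0.0679, 0.289 and 0.253. By the rule that every pair exceed 0.1, same-numbered libraries met it in the first 2 comparisons. Unlike numbers also did: 24 h library 3 with untreated library 1 had r = 0.16, and 24 h library 1 with untreated library 3 had 0.101. Between 48 h library 3 and untreated library 1, r was 0.36. Only number 2 stood apart from the other numbers, so these r do not show pairing by number for libraries 1 and 3. Any pairing comes from the data, since the labels name no shared culture or day.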

Additional observations from a re-analysis of the deposited data

Results flagged for a closer look

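miR-379-5p was higher in 24 h exosomes than in untreated ones by 13.8 CPM (difference of group means) and lower in 48 h exosomes, with a difference from untreated of -7.07 CPM. It is given here because every 48 h library lay on the other side of the untreated mean from every 24 h library. That mean, 12.3 CPM, rested on untreated library 3. Without it the untreated mean was 5.33 CPM, close to the 48 h mean of 5.18 CPM, and 48 h library 3 (7.60 CPM) lay on the same side as the 24 h libraries. The log2 fold change against untreated was then 2.21 at 24 h and -0.12 at 48 h. Both differences share the untreated libraries. The direct comparison of 48 h with 24 h in edgeR gave a log2 fold change of -2.33 ± 0.91 (SE; adjusted p = 0.424).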

How the results depend on the processing

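edgeR called 0 miRNAs in each comparison. Of all miRNAs, the calls for 24 h against untreated were 7 without the filter, 4 with DESeq2, 1 with only the compared groups and 3 with the replicate block (paired by number), and 0 to 1 leaving out one library. For 48 h against untreated there was 1 without the filter and 1 with DESeq2. For 48 h against 24 h there were 16, 6 and 3 (no filter, DESeq2, replicate block), and 0 to 1 leaving out one library. The block called 0 members, and changed no other call of a member. miR-382-5p under DESeq2 was the only member call under these settings. Leaving out one library, members higher ranged from 4 to 8 at 48 h against untreated and from 0 to 2 against 24 h; it was 0 against 24 h without both libraries numbered 2 of untreated and 48 h, a setting chosen after seeing the data. The median of 24 h against untreated was 0.77 to 1.71 leaving out one library. The median of 48 h against 24 h was -1.63 with the replicate block, -1.01 without both, and -1.66 to -1.0 leaving out one library. The summed level of 48 h against 24 h was -0.78 (log2) by the total of all counted reads.

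Directions turned for these log2 fold changes. At 24 h against untreated, leaving out one library gave -1.15 to 0.43 for miR-369-3p (0.42 without both) and -0.13 to 0.97 for miR-376c-3p. At 48 h against untreated, miR-127-3p was 0.09 with the replicate block and ranged from -0.73 to 0.38, miR-411-5p from -0.27 to 0.64, miR-369-3p from -0.66 to 1.57, miR-410-3p from -0.05 to 0.75 (-0.11 without both), miR-409-3p from -0.30 to 1.00 and miR-376c-3p from -0.38 to 1.40 (-0.22 without both). At 48 h against 24 h, miR-369-3p ranged from -0.08 to 1.63 (-0.07 without both) and miR-376c-3p from -0.90 to 0.99 (-0.90 without both). The causes of these turns were not tested. In all, 156 of 160, 146 of 158 and 154 of 159 member values kept direction and side of the threshold. No member passed in the main fit, so keeping its side meant staying uncalled. These values include fits without a library of the group not compared, which enters only through the shared filter, scaling and spread. The totals therefore say little about how stable the changes are. With only the compared groups, miR-431-5p fell under the filter in both 48 h comparisons, and miR-382-5p in that of 48 h against untreated.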
